A study of Mus musculus with 12 samples.

Results

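B16.F10 mouse melanoma cells that had received both an siRNA against Prmt7 and interferon gamma (siPRMT7 + IFN-γ) were set against cells that had received neither (a control siRNA against luciferase, siLuc, and no cytokine). The comparison takes 3 libraries of each kind, 6 of the 12 libraries sequenced, and gives the total difference between cells exposed to both agents and cells exposed to none. It covers the 14407 genes, of 55536 in the deposited table, whose mean over all 12 libraries was at least 4 on the scale of the table. The other 6 libraries hold siPRMT7 without IFN-γ (knockdown alone) and siLuc with IFN-γ (IFN-γ alone), 3 each. They served to place the combined difference beside each single one. All cells were B16.F10, a line of C57BL/6 origin. All were transfected with an siRNA for 72 h, and those given IFN-γ had it for the last 24 h. The labels disagree on the unit of the IFN-γ amount, so no dose is printed. The line is a single cell line in culture, and the labels do not say that libraries of a group came from separate cultures. The p-values thus reflect no more than the library-to-library spread, and that may be technical.

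IFN-γ is a cytokine of T cells and natural killer cells. It binds a receptor of the chains IFNGR1 and IFNGR2, whose kinases JAK1 and JAK2 activate transcription factors of the STAT family. STAT dimers bind GAS elements, and the factor IRF1 that they induce binds ISRE elements, in promoters of antiviral, antigen presentation and chemokine genes. The enzyme PRMT7 adds a single methyl group to arginine residues of proteins. IFN-γ is known to slow the division of many tumour cells and, in B16 cells, to raise MHC class I and PD-L1 on the surface.

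All values are the authors' rlog values, a log2 scale on which a step of 1 is a 2-fold change, scaled for library size. Differences are siPRMT7 + IFN-γ minus siLuc unless another pair is named, with a standard error (SE) from the spread shared by all 4 groups. A gene was called where limma gave a Benjamini-Hochberg adjusted p under 0.05, and called past 2-fold where the same held against a null of a 2-fold change. The rlog transform draws the values of weakly expressed genes toward their mean, which understates their differences. H2-Aa, nearly silent in siLuc cells, differed by 6.94 here and by 13.02 in the authors' deposited table. Poly(A) RNA of whole cultures cannot tell apart fewer cells of a kind and less RNA per cell.

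The targeted gene, Prmt7 (ENSMUSG00000060098.11), lies on the plus strand of chromosome 8 (mm10, bases 106210936 to 106252794). Its level was 6.36, 6.30 and 6.08 in siPRMT7 + IFN-γ libraries, against 10.16, 10.34 and 10.24 in siLuc libraries. The groups lay far apart, and the difference was -4.00 (SE 0.08, adjusted p = 4.51e-21), a 16-fold lower level. Prmt7 stood at 0.01 with IFN-γ alone and at -3.95 with the knockdown alone. The cytokine labels were checked in the same way. Irf1, the factor induced by IFN-γ, had 13.85, 13.91 and 13.83 in siPRMT7 + IFN-γ libraries and 8.80, 8.75 and 8.91 in siLuc libraries. The pigment cell genes were among the most abundant in both groups, with Tyrp1 at 16.77, 16.75 and 16.88 with both agents and at 17.23, 17.32 and 17.33 in siLuc. Of 20 leukocyte markers only Cd68 and Csf1r passed the filter on the mean, and Ptprc, which encodes CD45, lay between -0.59 and -0.55 in siPRMT7 + IFN-γ libraries and between -0.65 and -0.60 in siLuc libraries. Library totals were 18.971 to 25.943 M reads with both agents and 24.156 to 25.521 M in siLuc. The first principal component of all 12 libraries held 62.2% of the variance, and the siPRMT7 + IFN-γ and siLuc libraries lay at its ends, from -60.05 to -59.15 and from 60.87 to 62.44.

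Most of the transcriptome differed. The test called 5844 genes higher (40.6% of those tested) and 5854 lower (40.6%) in siPRMT7 + IFN-γ than in siLuc cells. The 3 values of a group did not overlap those of the other for 11617 genes (80.6%). Most differences were small: 9079 called genes differed by less than 2-fold, and the median size of a called difference was 0.56. Past 2-fold, 989 genes were higher (6.86%) and 867 lower (6.02%). The rises went further than the falls on the rlog scale. Of the genes past 2-fold, 142 higher and 2 lower ones differed at least 16-fold, and 431 against 273 at least 4-fold. Those 2 lower genes were the mitotic genes Kif11 and Birc5, and Prmt7, 16-fold lower after rounding, came just under that size. The count depended on the transform. In the authors' deposited table all of the 10 largest falls named below were past 16-fold, from -4.49 for Prmt7 to -4.01 for Mki67. The median over all genes was 0.01. The authors' deposited table calls 10309 of the tested genes, and 10308 of these were called here in the same direction and 0 in the opposite one.

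**Figure D1:**
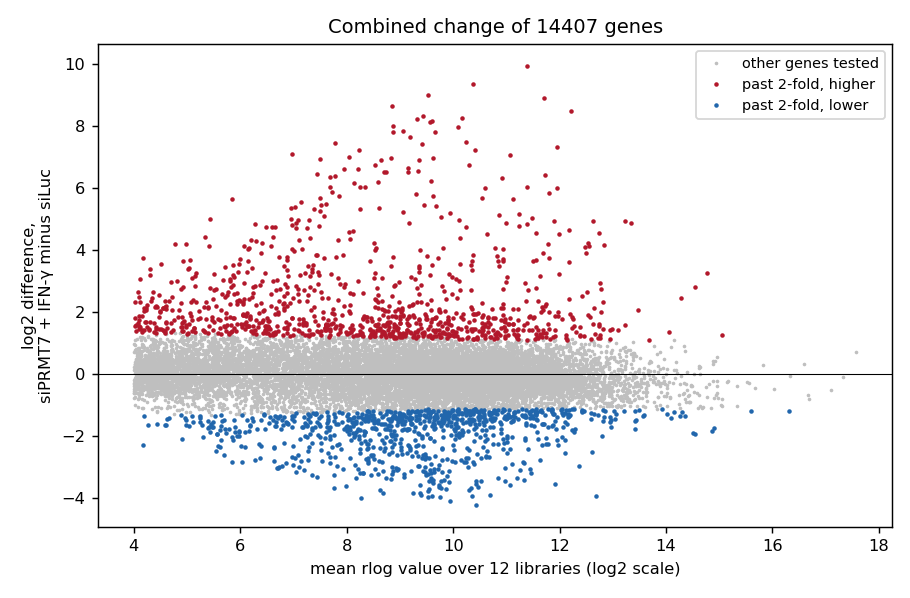
Each point is a gene: its mean rlog value over 12 libraries on the horizontal axis (log2 scale) and its log2 difference, siPRMT7 + IFN-γ minus siLuc, on the vertical axis. The 989 genes higher past 2-fold (red) reach above 9, while the 867 lower ones (blue) end near -4, and grey points are the other genes tested.

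The singly treated groups share the siLuc libraries with the combined comparison, so their values are set side by side and their likeness is no result. Past 2-fold, the knockdown alone had 365 genes higher and 263 lower than siLuc, and IFN-γ alone had 505 higher and 54 lower. Of the 989 genes higher with both agents, 156 were at least 2-fold higher with each agent alone, 327 with IFN-γ alone only, 316 with the knockdown alone only, and 186 with neither. A further 4 had a single difference of at least 2-fold the other way. Of the 867 lower genes, 41 were at least 2-fold lower with each agent, 51 with IFN-γ alone only, 376 with the knockdown alone only and 397 with neither, and 2 had an opposite single difference. The median of the 989 higher genes was 1.84 with both agents, 0.97 with the knockdown alone and 0.97 with IFN-γ alone. That of the 867 lower genes was -1.62 with both, -0.99 with the knockdown alone and -0.55 with IFN-γ alone. Since these genes were chosen by the combined difference, these splits describe them and test nothing. Set against IFN-γ alone directly, siPRMT7 + IFN-γ cells had 316 genes higher and 455 lower past 2-fold. Set against the knockdown alone, they had 420 higher and 253 lower.

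The largest rises were genes of the interferon-inducible GTPases, which attack the vacuoles of intracellular microbes, and their neighbours in the interferon programme. Iigp1, an immunity-related GTPase, had 16.11, 16.06 and 16.13 in siPRMT7 + IFN-γ libraries, against 6.08, 6.19 and 6.22 in siLuc libraries, a difference of 9.94 (SE 0.18, adjusted p = 1.14e-21). That is 980-fold on the rlog scale. Gbp4, a guanylate-binding protein gene, had 14.92, 14.96 and 14.88 with both agents and 5.52, 5.47 and 5.72 in siLuc, a difference of 9.35 (SE 0.17). Igtp, which encodes the GTPase IRGM3, had 15.55, 15.52 and 15.50 with both agents and 6.58, 6.66 and 6.60 in siLuc, a difference of 8.91 (SE 0.07). In each of these genes all 3 libraries with both agents lay more than 8 log2 units above all siLuc libraries. Gbp2 had 15.76, 15.72 and 15.68 in siPRMT7 + IFN-γ libraries and 7.28, 7.07 and 7.32 in siLuc libraries, a difference of 8.50 (SE 0.07). The near-identical pair Tgtp2 and Tgtp1 followed at 8.26 and 8.23, and their reads may be split between them. Zbp1, the sensor of Z-form nucleic acid that can trigger necroptosis, had 13.46, 13.46 and 13.44 with both agents against 5.33, 5.22 and 5.33 in siLuc (8.16, SE 0.08). Cd74, the invariant chain of MHC class II, had 13.80, 13.86 and 13.84 against 5.76, 5.68 and 5.73 (8.11, SE 0.08). Gbp6 at 7.98 and Gbp10 at 7.81 closed the 10 largest rises, predicted genes left out, and they share 29% and 46.3% of their exon bases with the predicted gene Gm43302 on the same strand, so their values are uncertain. In the plot of the largest changes by library, replicates of a group lay within a small fraction of the distance between groups. These genes were chosen for a large difference and no overlap, so their separation is no result.

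**Figure D2:**
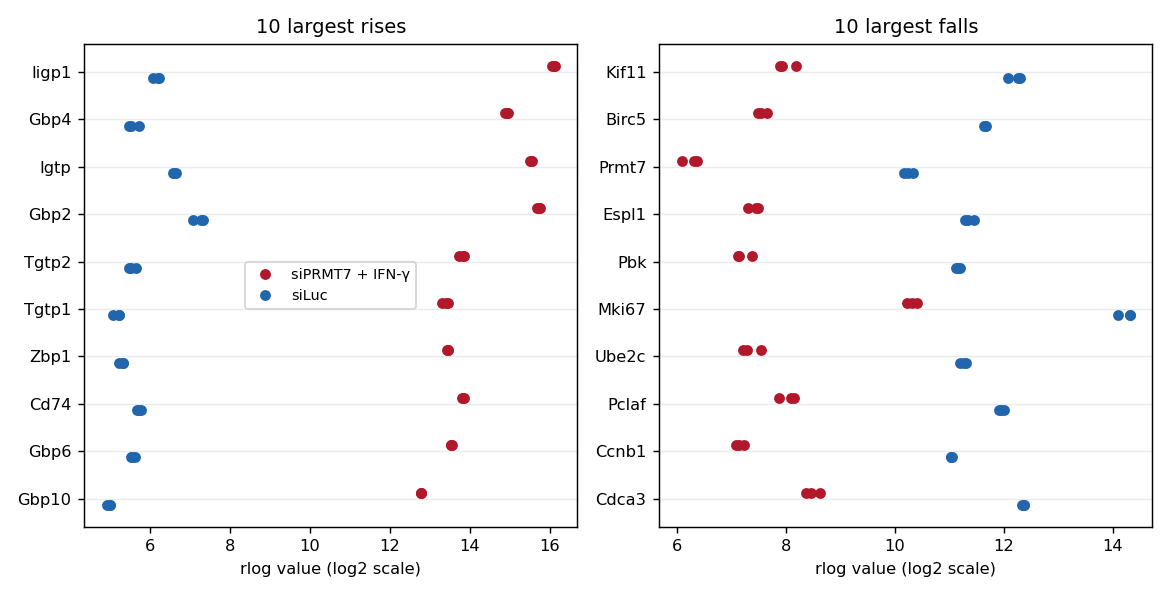
Points are single libraries (3 per group): the rlog value on the horizontal axis (log2 scale), for the 10 genes with the largest rise (left) and the 10 with the largest fall (right). The genes were chosen for groups that do not overlap, so siPRMT7 + IFN-γ points (red) and siLuc points (blue) form separate clusters. Iigp1 had 16.06 to 16.13 against 6.08 to 6.22.

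All 20 GTPase genes tested rose, each past 2-fold, with a median of 6.91 beside 0.01 over all genes. The background of genes higher past 2-fold is 6.86%. Gvin1, a very large GTPase, had the smallest rise at 2.34. The same list had a median of 1.46 with the knockdown alone, where 13 of 20 were higher and 0 lower, and 7.0 with IFN-γ alone. Mx1 and Mx2 rose by 4.96 and 5.07. Mx2 stood at 3.57 with the knockdown alone and at 3.58 with IFN-γ alone. Gbp4, Gbp10 and Tgtp1, by contrast, stood at 0.28, 0.01 and 0.09 with the knockdown alone.

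The promoters of Igtp and Gbp2 are shown because both genes are among the 10 largest rises and hold an interferon element in the RefSeq promoter table (GRCm38.p6, 250 bases before to 50 after the start site, plus strand for both). Capitals mark matches to an ISRE-like motif, GAAANNGAA, or a GAS motif, TTCNNNGAA, read on either strand. The Igtp window is chr11:58199306-58199605, with the GAS match at -45 to -37 and the ISRE-like match at -34 to -26 from the start site. The Gbp2 window is chr3:142620413-142620712, with an ISRE-like match on the minus strand at -58 to -50. Its RefSeq start lies 61 bases from the start in the deposited table.
Igtp: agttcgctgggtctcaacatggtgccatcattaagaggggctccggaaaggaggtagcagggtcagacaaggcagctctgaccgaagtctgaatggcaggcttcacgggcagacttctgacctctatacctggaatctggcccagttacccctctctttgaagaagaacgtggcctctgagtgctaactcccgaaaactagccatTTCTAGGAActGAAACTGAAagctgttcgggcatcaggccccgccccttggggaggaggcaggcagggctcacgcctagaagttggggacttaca
Gbp2: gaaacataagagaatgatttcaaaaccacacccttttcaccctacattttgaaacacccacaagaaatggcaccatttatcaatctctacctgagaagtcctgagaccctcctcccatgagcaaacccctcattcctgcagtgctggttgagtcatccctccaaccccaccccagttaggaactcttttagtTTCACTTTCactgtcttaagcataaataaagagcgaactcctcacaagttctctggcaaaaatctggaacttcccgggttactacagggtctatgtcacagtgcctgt

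Of 14407 genes tested 10021 had a promoter in that table. The ISRE-like motif stood in 19.3% of the promoters of genes higher past 2-fold (130 of 674), in 4.22% of those lower past 2-fold and in 7.05% of all. The GAS motif stood in 9.20% of the higher, 5.87% of the lower and 6.84% of all. Of the 10 GTPase genes with a promoter, 8 held the ISRE-like motif and 6 the GAS motif, and of 42 antiviral genes 20 held the ISRE-like motif. A match of letters is a description of the sequence and not evidence of a bound factor.

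The antiviral genes rose together: all 49 tested were called higher and 48 past 2-fold, beside 40.6% and 6.86% of all genes. The list median was 4.06 (1.38 with the knockdown alone and 3.96 with IFN-γ alone). Ifi44 had 12.83, 12.73 and 12.75 in siPRMT7 + IFN-γ libraries against 5.12, 5.20 and 5.06 in siLuc libraries, a difference of 7.64 (SE 0.07, adjusted p = 1.26e-26). Oasl2, a member of the oligoadenylate synthetase family, had 13.47, 13.52 and 13.51 with both agents and 6.29, 6.35 and 6.15 in siLuc (7.24, SE 0.06). Parp14, a mono-ADP-ribosyltransferase, had 14.45, 14.44 and 14.45 with both agents and 7.92, 8.02 and 8.10 in siLuc (6.43, SE 0.04). In these 3 genes the groups did not overlap, as in 80.6% of all genes. At the other end, Slfn9 at 1.10, Daxx at 1.41 and Slfn5 at 1.82 rose least. Isg15, the ubiquitin-like protein attached to other proteins in interferon-treated cells, rose by 4.86, its E1 enzyme gene Uba7 by 5.21 and its protease gene Usp18 by 5.13.

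Beside 40.6% of all genes called each way, 17 of 20 sensors of nucleic acid in the cytosol were higher and 2 lower (median 2.11). The 3 largest rises were Zbp1, then Ifi204 at 6.90 (SE 0.09) and Mndal at 6.04 (SE 0.07), both of the PYHIN family that binds DNA. The RNA sensors followed, with Dhx58 at 5.46, Ifih1 (MDA5) at 4.06 and Ddx58 (RIG-I) at 3.15. Eif2ak2, the kinase PKR, rose by 2.35. The 2 members that fell were Cgas, the synthase of cyclic GMP-AMP, by 0.60 and the adaptor Mavs by 0.14, while the factor Irf3 was at -0.09 (adjusted p = 0.11).

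Signalling components were higher in 23 of 29 cases and lower in 6 (median 0.67), beside 40.6% of all genes called each way. Receptor chains and kinases hardly moved beside the factors they act on. Ifngr1 fell by 0.16 and Ifngr2 rose by 0.46, Jak1 rose by 0.88 and Jak2 by 0.32. Among transcription factors, Stat2 rose by 5.16, Irf1 by 5.04, Irf8 by 4.70, Irf7 by 4.61 and Irf9 by 2.29. Batf2, a leucine zipper factor of the interferon response, had 10.47, 10.54 and 10.28 in siPRMT7 + IFN-γ libraries and 4.64, 4.68 and 4.70 in siLuc libraries (5.76, SE 0.08). Nlrc5, the transactivator of MHC class I genes, had 13.63, 13.69 and 13.65 with both agents against 6.19, 6.31 and 6.05 in siLuc (7.47, SE 0.07). The inhibitors Socs1 and Socs3 rose by 4.04 and 1.45, and Ptpn6, the phosphatase SHP-1, fell by 1.71. Socs3 stood at -1.11 with the knockdown alone and at 2.56 with IFN-γ alone.

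Antigen presentation rose as well. For MHC class I, 17 of 20 members were higher and 3 lower, with a median of 4.08, and every rise was past 2-fold. The shares over all genes were 40.6% called higher, 40.6% called lower and 6.86% higher past 2-fold. H2-T23, the nonclassical gene of Qa-1, had 12.63, 12.61 and 12.59 with both agents and 5.67, 5.57 and 5.69 in siLuc (6.97, SE 0.05, adjusted p = 2.66e-28). The immunoproteasome subunits Psmb8 and Psmb9 rose by 6.53 (SE 0.07) and 6.18 (SE 0.08), Tap1, of the peptide transporter, by 4.79, and B2m, the light chain, by 3.28. Psmb8 shares 14.7% of its exon bases with Gm20496 on the opposite strand, and members of the H2 family share sequence, so their values may hold reads of each other. The 3 members that fell were the endoplasmic reticulum chaperones Calr at -1.89, Pdia3 at -0.88 and Canx at -0.61, which also serve proteins outside this pathway.

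For MHC class II, 7 of 8 tested members rose and 1 fell (median 5.86), beside 40.6% of all genes called each way. Ciita, the transactivator of class II genes, had 10.15, 10.25 and 10.28 with both agents against 4.59, 4.50 and 4.56 in siLuc, a difference of 5.67. H2-Aa had 11.46, 11.46 and 11.48 against 4.53, 4.54 and 4.51 (6.94, SE 0.08). H2-Ab1 had 10.95, 10.96 and 11.01 against 4.57, 4.53 and 4.50 (6.44, SE 0.08). The siLuc values of these genes lie near the filter of 4. Ciita was at -0.05 with the knockdown alone and at 6.17 with IFN-γ alone, while H2-Aa was at -0.08 and 5.01, H2-Ab1 at 0.03 and 5.19 and Cd74 at 1.08 and 6.17. All 3 of these structural genes were therefore further from siLuc with both agents than with IFN-γ alone, whereas Ciita was not. Ifi30, a lysosomal thiol reductase, fell by 1.22.

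Among chemokines and cytokines 14 of 18 tested were higher, 1 lower and 3 not called, beside 40.6% of all genes called each way. The list median was 2.50 (0.14 with the knockdown alone and 1.28 with IFN-γ alone). Cxcl9 encodes a ligand of CXCR3, a chemokine receptor of T cells. It had 12.27, 12.11 and 11.93 in siPRMT7 + IFN-γ libraries against 4.91, 4.78 and 4.88 in siLuc (7.24, SE 0.09, adjusted p = 5.82e-25). Cxcl11 had 9.54, 9.24 and 8.99 with both agents and 4.51, 4.52 and 4.49 in siLuc (4.75, SE 0.12). It is annotated as a polymorphic pseudogene, so its RNA need not give a working chemokine. Ccl2, which draws monocytes, had 10.60, 10.49 and 10.34 with both agents and 5.93, 5.96 and 5.84 in siLuc (4.57, SE 0.08). Libraries with both agents varied more here than in the GTPase genes. The groups did not overlap, which held for 80.6% of all genes. The neutrophil chemokines Cxcl1 and Cxcl2 rose by 4.34 and 3.18, and Tnf by 2.13. Cxcl10 rose by 2.81, as far as with IFN-γ alone (2.81). Mif fell by 0.41, and Tgfb2 (-0.05), Il33 (0.11) and Cx3cl1 (0.23) were not called.

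Checkpoint and immune evasion ligands were mixed, with 9 of 16 higher, 5 lower and 2 not called (median 0.44). Of all genes 40.6% were called higher and 40.6% lower. Cd274, which encodes PD-L1, had 13.89, 13.87 and 13.95 in siPRMT7 + IFN-γ libraries and 9.73, 9.60 and 9.78 in siLuc libraries, a difference of 4.20 (SE 0.04, adjusted p = 6.34e-26). It was 3.65 above siLuc with IFN-γ alone and 0.50 with the knockdown alone. Cd274 shares 14.1% of its exon bases with AC119228.1 on the opposite strand. Serpinb9, an inhibitor of granzyme B, rose by 3.47 (SE 0.06), and Tnfrsf14, the receptor HVEM, by 3.26 (SE 0.11). Lgals3 rose by 3.15 and Cd47, a signal against phagocytosis, by 1.81, while Nectin2 fell by 0.67.

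Enzymes and effectors tied to IFN-γ were higher in 10 of 13 cases and lower in 2 (median 1.44), beside 40.6% of all genes called each way. Ubd, the ubiquitin-like modifier FAT10, had 12.16, 12.17 and 12.21 with both agents and 4.66, 4.66 and 4.87 in siLuc (7.45, SE 0.08, adjusted p = 1.53e-25). The apolipoprotein L genes Apol6 and Apol9b rose by 6.97 (SE 0.10) and 6.55 (SE 0.06). Nos2, the inducible nitric oxide synthase, rose by 4.44 and Acod1, which makes itaconate, by 3.56. With IFN-γ alone Nos2 stood at 1.95 and Acod1 at 0.96, and with the knockdown alone at -0.09 and -0.03. Ass1, of arginine synthesis, fell by 1.39, and Sod2 fell by 0.79.

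Cell death genes were higher in 24 of 28 cases and lower in 4 (median 0.92), beside 40.6% of all genes called each way. Past 2-fold 11 of them were higher and 1 lower, against 6.86% and 6.02% of all genes. Casp4, the inflammatory caspase 11 of the mouse, had 9.23, 9.18 and 9.17 with both agents and 4.74, 4.93 and 4.95 in siLuc (4.32, SE 0.09, adjusted p = 2.29e-20). Casp12 had 8.17, 8.05 and 8.12 against 4.25, 4.16 and 4.23 (3.90, SE 0.09). Gsdmd, the pore former of pyroptosis, had 8.03, 8.08 and 8.0 against 5.22, 5.14 and 5.31 (2.81, SE 0.09). All 3 genes were clear of their siLuc range, as were 80.6% of all genes. Casp12 and Gsdmd stood higher with IFN-γ alone (4.84 and 4.14). Fas rose by 2.48, Mlkl, the executor of necroptosis, by 1.99 and the inhibitor Cflar by 1.76. Of the 4 lower members 1 was past 2-fold, at -1.44. Fadd (-0.87), Bax (-0.53) and Mcl1 (-0.13), a survival factor of the BCL2 family, were called lower by less than 2-fold.

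**Figure D3:**
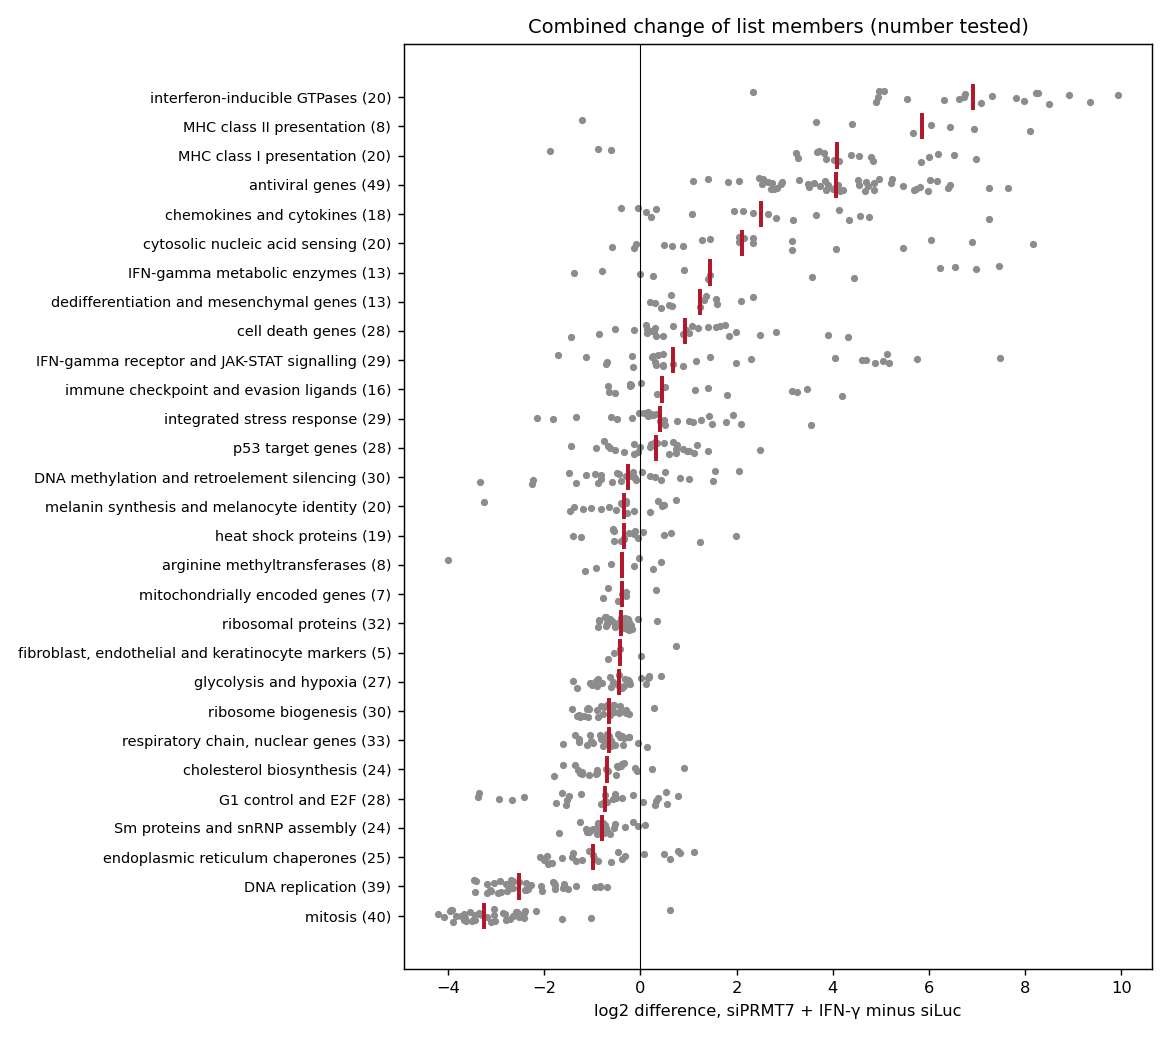
Each row is a gene list with the number of its genes tested. Grey points are genes, placed by log2 difference (siPRMT7 + IFN-γ minus siLuc), and the red bar is the list median, which runs down the page to -2.52 for DNA replication and -3.25 for mitosis.

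The falls were led by genes of dividing cells. Of 40 mitosis genes 39 were lower and 1 higher, 38 of the falls past 2-fold, with a median of -3.25. The shares over all genes were 40.6% called lower and 6.02% lower past 2-fold. Kif11, the spindle motor Eg5, had 7.93, 8.18 and 7.88 in siPRMT7 + IFN-γ libraries against 12.07, 12.27 and 12.30 in siLuc libraries, a difference of -4.21 (SE 0.06, adjusted p = 3.37e-23), or 18.6-fold lower. Birc5, survivin of the chromosomal passenger complex, had 7.54, 7.64 and 7.49 with both agents and 11.67, 11.65 and 11.63 in siLuc (-4.09, SE 0.05). Espl1, separase, had 7.3, 7.48 and 7.44 with both agents and 11.34, 11.45 and 11.28 in siLuc (-3.95, SE 0.06). Each of these was lower by about 4 log2 units in every library. Mki67, the source of the Ki-67 antigen, had 10.32, 10.40 and 10.23 with both agents and 14.09, 14.32 and 14.32 in siLuc (-3.93, SE 0.05). The rest of the 10 largest falls, besides Prmt7, were the kinase gene Pbk at -3.95, Ube2c, of the anaphase-promoting pathway, at -3.92, the PCNA-binding Pclaf at -3.92, cyclin B1 (Ccnb1) at -3.89 and Cdca3 at -3.88. Pttg1, which encodes securin, was the mitosis gene that rose, by 0.62.

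DNA replication genes fell without exception: all 39 were called lower, 35 past 2-fold, with a median of -2.52. Beside this, 40.6% of all genes were called lower and 6.02% past 2-fold. Tk1, thymidine kinase, had 7.72, 7.73 and 7.76 in siPRMT7 + IFN-γ libraries and 11.27, 11.18 and 11.13 in siLuc libraries (-3.46, SE 0.05, adjusted p = 8.14e-24). Mcm5, of the replicative helicase, had 8.90, 8.99 and 8.87 with both agents and 12.30, 12.42 and 12.36 in siLuc (-3.44, SE 0.04). Rrm2, the small subunit of ribonucleotide reductase, had 9.21, 9.38 and 9.23 with both agents and 12.66, 12.71 and 12.70 in siLuc (-3.42, SE 0.04). The groups were far apart in all 3. The smallest falls were Gins2 at -0.70, Gins3 at -0.85 and Rfc3 at -0.85.

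Neither agent alone came near these sizes. The mitosis median was -1.44 with the knockdown alone and -0.65 with IFN-γ alone, and the replication median -1.06 and -0.71. Past 2-fold, 33 mitosis genes and 12 replication genes were lower with the knockdown alone, and 0 of each with IFN-γ alone. The fit's interaction tests whether the combined difference departs from the sum of the single ones on the log2 scale, where adding corresponds to multiplying folds. It called 37 of 40 mitosis genes and 34 of 39 replication genes below the sum, where 16.5% of all genes were called below and 14.1% above. For Mki67 the sum was -2.29 and the measured difference -3.93 (departure -1.64, SE 0.08, adjusted p = 4.49e-13).

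**Figure D4:**
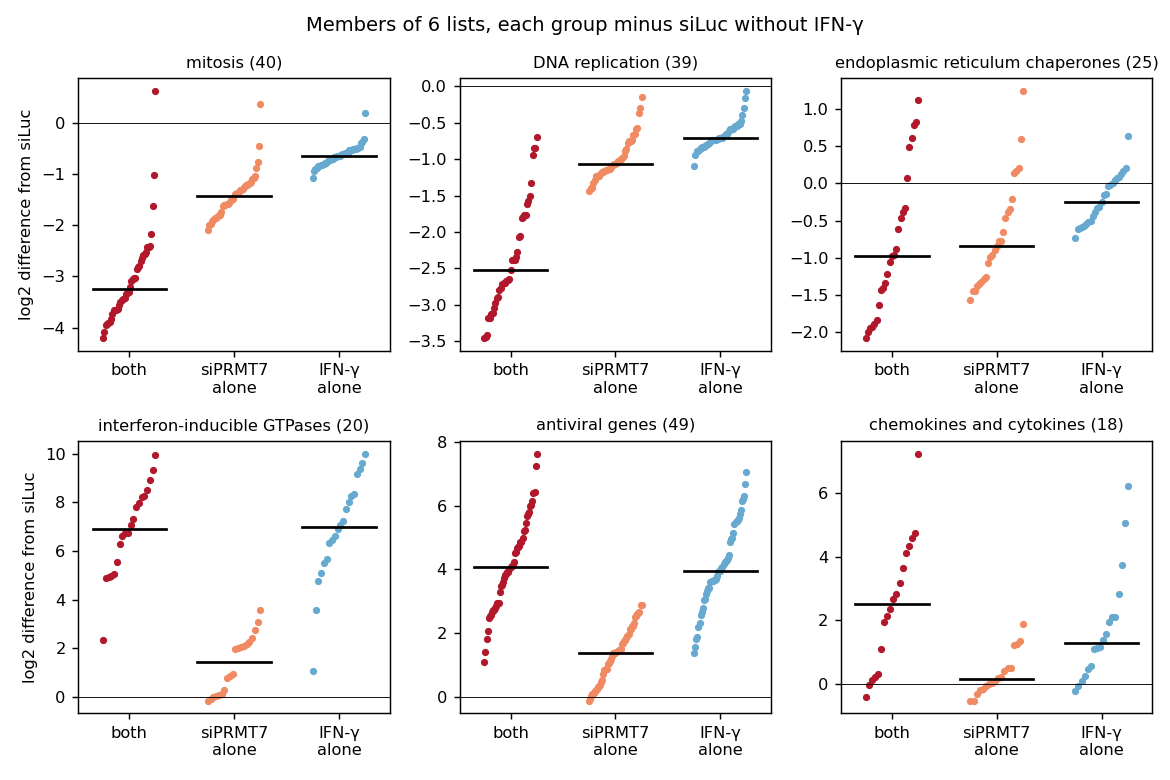
Points are the genes of 6 lists, placed by log2 difference from siLuc (vertical axis) with both agents, with siPRMT7 alone and with IFN-γ alone, and ordered by size within each group. The black bar is the median, which for mitosis is -3.25, -1.44 and -0.65 and for the GTPases 6.91, 1.46 and 7.0.

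The promoters of Kif11 and Espl1 are shown as 2 of the 10 largest falls whose RefSeq window holds a CHR-like motif, TTTGAA, the element of many genes expressed in the G2 and M phases. They come from the same table and build, on the plus strand. Capitals mark the match on either strand. In Kif11 the window is chr19:37376132-37376431 with the match at -19 to -14, and its start lies 21 bases from that of the deposited table. In Espl1 it is chr15:102296043-102296342 with the match at -27 to -22 and a start 27 bases from the deposited one.
Kif11: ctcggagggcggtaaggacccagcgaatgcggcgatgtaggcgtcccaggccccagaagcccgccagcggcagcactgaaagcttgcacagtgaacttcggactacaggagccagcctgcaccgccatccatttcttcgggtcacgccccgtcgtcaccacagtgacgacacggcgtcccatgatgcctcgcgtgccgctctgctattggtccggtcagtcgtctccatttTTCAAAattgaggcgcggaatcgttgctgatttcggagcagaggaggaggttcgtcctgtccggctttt
Espl1: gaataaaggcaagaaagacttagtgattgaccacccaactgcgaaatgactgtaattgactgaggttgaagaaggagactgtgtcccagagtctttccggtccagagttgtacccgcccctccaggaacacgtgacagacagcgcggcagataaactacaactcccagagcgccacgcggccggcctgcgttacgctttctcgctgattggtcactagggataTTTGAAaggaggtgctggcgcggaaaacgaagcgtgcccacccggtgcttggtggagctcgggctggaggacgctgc

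The CHR-like motif stood in 23 of 32 mitosis promoters (71.9%), in 20.9% of promoters of genes lower past 2-fold, in 12.8% of those higher past 2-fold and in 11.6% of all. The CCAAT box, often found near it, stood in 24 of the 32, against 38.5% of all promoters. E2F motifs, TTTGGCGC or TTTCCCGC, stood in 11 of 31 replication promoters (35.5%), in 8.28% of those lower past 2-fold, in 1.34% of those higher and in 3.15% of all. Only 2 of the 32 mitosis promoters held an E2F motif, and 6 of the 31 replication promoters held the CHR-like one. The CHR-like motif was also found in lists that rose, in 5 of 10 GTPase promoters (50%) and 11 of 42 antiviral promoters (26.2%). The Igtp and Gbp2 windows shown hold a CHR-like match and the Espl1 window an ISRE-like match, which are not in capitals. No test was run on these shares.

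Regulators of the G1 phase were lower in 21 of 28 cases, higher in 6 and not called in 1 (median -0.74). Over all genes 40.6% were called lower and 40.6% higher. Past 2-fold 11 of these regulators were lower and 0 higher, against 6.02% and 6.86% of all genes. E2f8, a repressive E2F factor expressed in S phase, had 6.61, 6.91 and 6.78 with both agents and 10.09, 10.15 and 10.16 in siLuc (-3.37, SE 0.07, adjusted p = 3.1e-21). Mybl2, which drives mitotic genes, had 6.94, 6.91 and 6.85 against 10.20, 10.42 and 10.16 (-3.36, SE 0.07). E2f2, an activating E2F, had 6.46, 6.45 and 6.12 against 9.26, 9.39 and 9.21 (-2.94, SE 0.08). E2f4 was at -0.38 and E2f3 at -0.58. Myc fell by 1.64 and Ccnd1, cyclin D1, by 1.54, whereas Ccnd1 had stood at 0.44 with the knockdown alone. Rb1 rose by 0.78 and Cdkn1b, p27, by 0.32.

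Targets of p53 did not move as a block: 17 of 28 were higher, 9 lower and 2 not called, with a median of 0.33. Over all genes 40.6% were called higher and 40.6% lower. The median of the p53 targets was 0.54 with the knockdown alone and -0.20 with IFN-γ alone. Fas rose by 2.48 (SE 0.12), Bbc3, which encodes PUMA, by 1.40 (SE 0.07) and Cdkn1a, the cyclin-dependent kinase inhibitor p21, by 1.11. Perp fell by 1.45 (SE 0.05). Trp53 itself was at -0.14.

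Melanocyte genes were lower in 14 of 20 cases and higher in 6, with a median of -0.34, beside 40.6% of all genes called lower and 40.6% higher. Kit, the receptor of melanocyte precursors, had 5.50, 5.62 and 5.73 in siPRMT7 + IFN-γ libraries and 8.80, 8.85 and 8.95 in siLuc libraries (-3.25, SE 0.09, adjusted p = 1.5e-18). Tyr, tyrosinase, had 12.13, 12.10 and 12.20 with both agents and 13.55, 13.57 and 13.73 in siLuc (-1.47, SE 0.04). Slc45a2, a melanosome transporter, had 12.14, 12.20 and 12.16 with both agents and 13.52, 13.55 and 13.61 in siLuc (-1.39, SE 0.04). These groups did not overlap, like those of 80.6% of all genes. The lineage factors moved little, with Mitf at -0.27, Pax3 at -0.14 and Sox10 at 0.20. All 13 tested dedifferentiation and mesenchymal genes rose, 6 of them past 2-fold, with a median of 1.24. Jun rose by 2.10 (SE 0.05) and fibronectin (Fn1) by 1.60 (SE 0.05). Of the 24 genes in that list 11 did not reach the filter on the mean, among them Ngfr, Snai1 and Twist1. Axl rose by 0.42, though it was at -0.75 with the knockdown alone and at 0.85 with IFN-γ alone.

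Folding and stress genes divided, beside 40.6% of all genes called higher and 40.6% lower. Endoplasmic reticulum chaperones and their regulators were lower in 19 of 25 cases and higher in 5, with a median of -0.98 (-0.84 with the knockdown alone and -0.25 with IFN-γ alone). Manf had 9.96, 9.88 and 9.85 with both agents and 12.01, 11.96 and 11.96 in siLuc (-2.08, SE 0.04, adjusted p = 2.04e-21). The disulfide isomerase gene Pdia6 had 11.69, 11.74 and 11.76 against 13.72, 13.73 and 13.73 (-2.0, SE 0.04), and Creld2 was at -1.94. Hspa5, the central chaperone BiP, fell by 1.93, while the stress sensors Atf6 and Ern1 rose by 0.82 and 1.12. In the integrated stress response 21 of 29 rose, 6 fell and 2 were not called (median 0.40). Atf3 had 11.71, 11.63 and 11.77 with both agents and 8.16, 8.10 and 8.20 in siLuc (3.55, SE 0.05), and Ddit3, which encodes CHOP, rose by 2.09 (SE 0.05). The members that fell were mostly enzymes and a transporter of amino acid supply: Phgdh, at the start of serine synthesis, fell by 2.15 (SE 0.06), Slc7a5 by 1.81 and Shmt2 by 1.33. Heat shock genes were lower in 12 of 19 cases and higher in 4 (median -0.34), with the mitochondrial Hspe1 at -1.40 (SE 0.05) and the small heat shock protein Hspb1 at 1.99 (SE 0.12).

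Genes of growth and energy supply were mostly lower, beside 40.6% of all genes called lower. Past 2-fold, 5 of 24 cholesterol, 2 of 27 glycolysis and 4 of 33 respiratory chain genes were lower, beside 6.02% of all genes. The glycolysis count is near that share. Of 24 genes of cholesterol synthesis and uptake, 20 were lower and 1 higher (median -0.70), with Acat2 at -1.79 (SE 0.06). With IFN-γ alone 9 of these genes were higher and 3 lower. Glycolysis and hypoxia genes fell in 20 of 27 cases and rose in 1 (median -0.45), with Eno1 at -1.41 (SE 0.08), the glucose transporter Slc2a3 at -1.32 (SE 0.05) and Gapdh at -1.05 (SE 0.07). Nuclear genes of the respiratory chain fell in 31 of 33 cases (median -0.66), led by Ndufs1 of complex I at -1.61 (SE 0.04), Atp5a1 at -1.35 (SE 0.04) and Cyc1 at -1.28 (SE 0.04). Of 7 mitochondrially encoded genes 6 were lower and 1 higher, with a median of -0.38. Here the agents stood on opposite sides of siLuc, at a median of 0.30 with the knockdown alone and -0.78 with IFN-γ alone. Libraries of the siLuc group were spread in these transcripts, with mt-Cytb, of complex III, at 16.25, 16.30 and 16.36 with both agents and at 17.28, 16.75 and 16.89 in siLuc.

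Ribosomal protein genes fell in 30 of 32 cases and rose in 1 (median -0.40), all by less than 2-fold. Rpl8 had 13.98, 14.03 and 14.03 in siPRMT7 + IFN-γ libraries and 14.98, 14.92 and 14.81 in siLuc libraries (-0.89, SE 0.05). Of 30 ribosome biogenesis genes 29 fell and 1 rose (median -0.66), with Nhp2, of the H/ACA particles, at -1.43 (SE 0.05), and Nop58 and Nolc1 at -1.32 and -1.28. Sm proteins and snRNP assembly genes, which hold known substrates of arginine methylation, fell in 22 of 24 cases and rose in 0 (median -0.80). Snrpb, which encodes the SmB protein, had 11.01, 11.02 and 10.89 with both agents and 12.70, 12.69 and 12.59 in siLuc (-1.69, SE 0.04, adjusted p = 3.4e-19). Lsm4 and Snrpg followed at -1.26 and -1.13. Of 8 arginine methyltransferase genes tested 5 were lower, Prmt7 among them, 2 higher and 1 not called (median -0.38). Among all genes 40.6% were called lower and 40.6% higher. Prmt1, the main enzyme of asymmetric dimethylation, fell by 1.16 (SE 0.04), Prmt3 by 0.93 (SE 0.04) and Prmt5 by 0.61. Prmt6 rose by 0.43 and Prmt2 by 0.26.

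In the list of DNA methylation and retroelement silencing 20 of 30 genes were lower, 9 higher and 1 not called (median -0.25), beside 40.6% of all genes called lower and 40.6% higher. The largest falls formed the machinery of maintenance methylation, which works at replication forks. Uhrf1, which recruits DNMT1, had 9.10, 9.25 and 9.24 in siPRMT7 + IFN-γ libraries and 12.45, 12.57 and 12.58 in siLuc libraries (-3.34, SE 0.04, adjusted p = 3.79e-24). Dnmt1 had 10.49, 10.59 and 10.48 with both agents and 12.67, 12.83 and 12.81 in siLuc (-2.25, SE 0.04). Hells, a remodeller needed for DNA methylation, had 9.52, 9.61 and 9.64 against 11.74, 11.85 and 11.90 (-2.24, SE 0.04). These falls stand beside those of the replication genes given above, and the part of cell division in them was not tested. The other 3 members lower past 2-fold were Ezh2, the H3K27 methyltransferase, at -1.48, the de novo methyltransferase gene Dnmt3a at -1.34 and Suv39h1, an H3K9 methyltransferase, at -1.13. Setdb1, another H3K9 methyltransferase, was at -0.12 and its corepressor partner Trim28 at -0.81. Tet2 and the demethylase gene Kdm5b rose by 1.51 and 1.56, and Adar, the RNA editor, by 2.05.

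Markers of other cell types moved beside these lists. Cd68, a lysosomal protein of macrophages, had 7.27, 7.14 and 7.06 with both agents and 5.23, 5.43 and 5.11 in siLuc (1.90, SE 0.12). Csf1r was at 0.20 (adjusted p = 0.0145), a call lost without the siPRMT7 + IFN-γ library of replicate 2 (0.17, adjusted p = 0.0591). It shares 15.1% of its exon bases with the more abundant Hmgxb3 on the opposite strand. The other 18 of 20 leukocyte markers did not reach the filter. Of 16 fibroblast, endothelial and keratinocyte markers 5 were tested, with Col1a1 at -0.68, Pdgfra at -0.54, Pdgfrb at -0.42, Col1a2 at 0.01 (adjusted p = 0.95) and Vwf at 0.75. Their part in the results above was not tested.

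In 12 genes with a mean of at least 6, predicted genes left out, the agents alone differed from siLuc in opposite directions, each by at least 2-fold: 8 were lower with the knockdown and higher with IFN-γ, and 4 the reverse. Samhd1, which degrades nucleotides, was at -1.37 with the knockdown alone and at 2.95 with IFN-γ alone, and its combined difference was 1.44 (SE 0.06). Its values were 12.19, 12.15 and 12.01 with both agents and 10.58, 10.72 and 10.74 in siLuc. Fabp5, a fatty acid-binding protein gene, was at -2.07 with the knockdown alone and 1.20 with IFN-γ alone, and at -1.86 (SE 0.05) with both. Asb13 was at -1.35 and 1.88 alone and at 0.60 with both, and Wfdc1 at -1.54 and 1.48 alone and at -0.26 (adjusted p = 0.023) with both. Of the 4 genes with the reverse pattern, Oca2, the melanosomal channel gene, was at 1.33 with the knockdown alone and -1.06 with IFN-γ alone, and at 0.45 with both. Car6, carbonic anhydrase 6, was at 1.08 and -2.08 alone and at -0.98 with both, and Asb2 at 1.19 and -1.16 alone and at -0.28 (adjusted p = 0.0152) with both. The calls of Wfdc1 and Asb2 did not hold in every subset of libraries: leaving out siLuc replicate 2 gave an adjusted p = 0.0588 for Wfdc1 and an adjusted p = 0.0861 for Asb2.

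Across all genes, 2034 (14.1%) stood above the sum of the single differences and 2381 (16.5%) below it at an adjusted p under 0.05. This split depended on the scaling: it was 2852 above and 1993 below under median centring and 2329 above and 2319 below under quantile normalization. Of the 989 genes higher past 2-fold, 412 were called nearer 0 than the sum, 179 farther and 398 neither. Of the 867 lower ones, 87 were called nearer 0, 394 farther and 386 neither. These counts share libraries with the choice of genes and are a description.

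The 6 genes farthest above the sum, among those past 2-fold with a mean of at least 6 and predicted genes left out, were of several kinds. Clic5, a chloride intracellular channel gene, had 11.56, 11.50 and 11.51 in siPRMT7 + IFN-γ libraries and 4.49, 4.36 and 4.38 in siLuc libraries. It was at 7.11 with both agents, 0.21 with the knockdown alone and 2.90 with IFN-γ alone, a departure of 4.0 (SE 0.12, adjusted p = 5.56e-16). Ubd departed by 2.72 (SE 0.12) and H2-Aa by 2.01 (SE 0.11). Clic5, Ubd and H2-Aa had means of 4.41, 4.73 and 4.53 in siLuc cells, and of 4.62, 5.29 and 4.45 with the knockdown alone. These lie near the filter of 4, where the transform understates differences, so their single differences and the sum are uncertain. Klf4, a zinc finger factor, was at -0.37 with the knockdown alone, at -0.01 with IFN-γ alone and at 1.54 with both (departure 1.92, SE 0.14). Its values were 7.72, 7.84 and 7.75 with both agents and 6.19, 6.20 and 6.30 in siLuc. Cxcl1, at 10.75, 10.68 and 10.68 with both agents against 6.24, 6.47 and 6.38 in siLuc, departed by 1.86 (SE 0.12). Tnfaip3, the A20 brake of NF-κB signalling, had 8.30, 8.08 and 7.96 with both agents and 6.11, 5.91 and 5.95 in siLuc and departed by 1.57 (SE 0.19).

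The 6 genes farthest below the sum, by the same limits, were interferon-inducible genes that had risen with each agent alone. Usp18 had 12.70, 12.64 and 12.59 in siPRMT7 + IFN-γ libraries and 7.39, 7.65 and 7.50 in siLuc libraries. It was at 2.99 with the knockdown alone, 5.28 with IFN-γ alone and 5.13 with both, a departure of -3.14 (SE 0.09, adjusted p = 3.77e-16). Gbp2 departed by -2.95, Gbp3 by -2.77, Trim12c by -2.71, Irgm2 by -2.69 and Ifit3 by -2.67. In Usp18, Gbp3 and Ifit3 siPRMT7 + IFN-γ cells lay within 0.15 of IFN-γ alone, in Trim12c and Irgm2 they lay 0.97 and 0.39 above it, and in Gbp2 they lay below it (-0.87). Beside 14.1% of all genes called above the sum and 16.5% below, 46 of 49 antiviral genes were called below and 2 above, as were 14 and 1 of 20 GTPase genes. For MHC class I it was 15 below and 1 above of 20, for signalling components 17 below and 2 above of 29, for cell death genes 13 below and 2 above of 28, and for cholesterol genes 18 below and 0 above of 24. MHC class II genes were mixed, with 3 below and 5 above of 8, and chemokine and cytokine genes had 2 below and 10 above of 18.

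**Figure D5:**
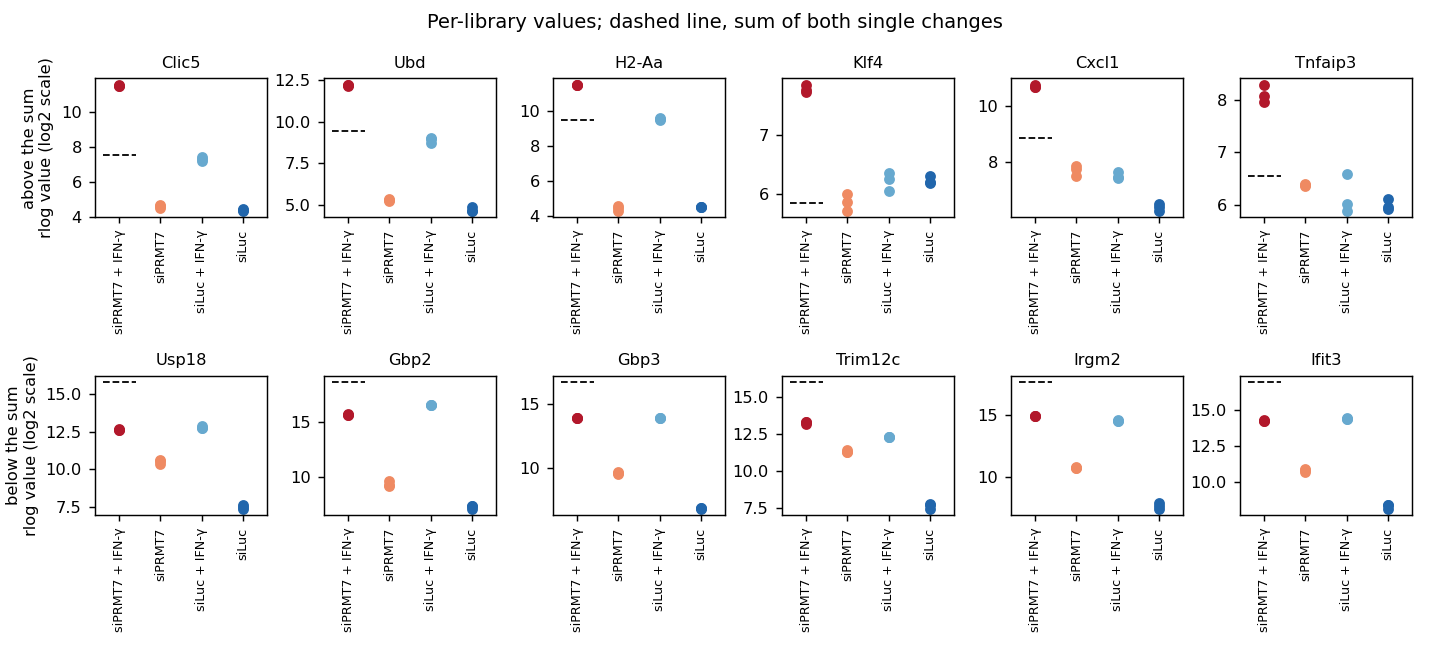
Points are single libraries of 4 groups (3 each), with the rlog value on the vertical axis (log2 scale, its range set for each gene). The dashed line is the siLuc mean plus both single differences: siPRMT7 + IFN-γ libraries lie above it in the top row, as in Clic5 (11.50 to 11.56), and below it in the bottom row, as in Usp18 (12.59 to 12.70).

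Some differences past 2-fold were under 2-fold with either agent alone, though some of these single differences came close to that limit. Among genes higher past 2-fold whose single differences were both under 2-fold, the 6 largest rises in genes with a mean of at least 6, predicted genes left out, were in 3 regulators of NF-κB and 3 other genes. Acod1, given above with a rise of 3.56, has a lower mean (4.51). Nfkbiz, the nuclear inhibitor-like coactivator, had 10.01, 9.88 and 9.81 with both agents and 7.59, 7.37 and 7.48 in siLuc (2.42, SE 0.07), beside 0.96 with the knockdown alone and 0.87 with IFN-γ alone. Nfkbie had 10.59, 10.60 and 10.60 against 8.41, 8.42 and 8.40 (2.19, SE 0.06), beside 0.46 and 0.36. Tnfaip3 was at 2.12, beside 0.38 and 0.17. Slc31a2, a copper transporter, was at 2.33, beside 0.85 and 0.88, and Hspb1 at 1.99, beside 0.67 and 0.47. The formin gene Fhod3 was at 1.96, beside 0.81 and 0.86. Unlike the others, Fhod3 was not called as departing from the sum (interaction 0.29, adjusted p = 0.0949). The largest falls of this kind were genes of dividing cells. E2f8 and E2f2 were given above. Rad51ap1, of homologous recombination, had 7.66, 7.68 and 7.49 with both agents and 10.59, 10.59 and 10.65 in siLuc (-3.00, SE 0.05), beside -0.83 and -0.74. Bard1, which acts in homologous recombination too, was at -2.86, and Sgo2a, a protector of cohesin, at -2.78. Sgo2a shares 35% of its exon bases with Kctd18 on the opposite strand, which makes its value uncertain.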

How the data were processed

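RNA of B16.F10 cells was sequenced in 12 libraries, 3 in each of 4 groups, from a poly(A) kit that marks the strand, per the labels' protocols. The deposited per-library values are regularized log values on a log2 scale, per the file headers; the read counts behind them are not used here. Such values understate both the differences and the spread of genes with few reads. DESeq2 1.26.0, HOMER 4.11.1, STAR 2.7.1a and Trimmomatic 0.39 are named, without roles, in the submitters' processing notes, with the build mm10 (GRCm38). Strand use in counting was not given in the sources used here. The authors' deposited log2 fold changes and adjusted p-values were used only where named.

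Genes with a mean of at least 4 were tested, keeping for each symbol the line with the highest mean. Group means of all 12 libraries were fitted with limma 3.58.1 in R 4.3.3 (mean-variance trend, 2-sided, Benjamini-Hochberg over 14407 genes; 8 residual and 12.4 prior degrees of freedom, median SD 0.0751), with treat for the 2-fold null. The code was tested on simulated data. Median SDs within groups ran from 0.14 at means of 4 to 6 to 0.045 above 14. Library depth, the only measure of depth given, ran from 18.971 to 30.978 M reads. Per-library columns without a mapped sample numbered 0.

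The comparison, the 30 gene lists and the rules were chosen with earlier results of these data known. Named were Prmt7 and the 10 largest rises and 10 largest falls with a mean of at least 6 and no overlap, without predicted genes. Up to 3 called members per list with the largest difference were named, as were the 6 genes farthest above and below the sum of single differences. The 6 largest rises and falls with single differences under 2-fold, and up to 4 genes per opposing pattern, completed the rule. Some genes that this rule names are not reported here. Other list members were named for their known roles after their values were seen. Exon overlaps come from GENCODE M21, which held identifiers of 14401 of the genes, and promoters from RefSeq. Alternatives were other scalings, filters on the mean, no trend, a replicate block, a fit to the 6 libraries alone, the authors' fold changes, and each library left out.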

Additional observations from a re-analysis of the deposited data

Results flagged for a closer look

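The response to both agents differed from the sum of the single responses by a test of that difference (the interaction) in 2034 genes above and 2381 below, at an adjusted p under 0.05 from limma. Among genes past 2-fold in the combined comparison with a mean of at least 6, predicted genes left out, the departures farthest above the sum were 4.0 for Clic5, 2.72 for Ubd, 2.01 for H2-Aa, 1.92 for Klf4, 1.86 for Cxcl1 and 1.57 for Tnfaip3. Those farthest below it were -3.14 for Usp18, -2.95 for Gbp2, -2.77 for Gbp3, -2.71 for Trim12c, -2.69 for Irgm2 and -2.67 for Ifit3. These 12 were chosen for the size of the departure. Genes with a lower mean, where the transform acts most, also departed upward, such as Acod1 at 2.64, Nos2 at 2.57 and Cxcl2 at 2.43. The transform bears on Clic5, Ubd and H2-Aa too, whose siLuc means were 4.41, 4.73 and 4.53. The untreated siPRMT7 library of replicate 3 stood above its group mates in several GTPase genes, with Iigp1 at 6.85, 6.59 and 7.92 and Gbp4 at 5.39, 5.55 and 6.60 in the 3 libraries. Without that library 1692 genes were above the sum and 2204 below.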

How the results depend on the processing

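All 10 counts of genes stayed within 1.5 times the reported value under the alternatives run. The genes called higher ranged from 4820 (a mean of at least 6) to 7478 (no filter) and those called lower from 5295 to 6263 under the same settings. Past 2-fold the ranges were 807 to 1038 higher and 812 to 921 lower. Leaving out each library in turn gave 5646 to 5759 higher, 5688 to 5841 lower, 933 to 983 higher past 2-fold, 821 to 863 lower past 2-fold, 1692 to 2207 above the sum and 2104 to 2443 below it. Scaling moved the median of all genes by -0.056 (quantile normalization) and 0.032 (median centring) on the log2 scale. The median of the fibroblast, endothelial and keratinocyte markers, -0.42 over 5 genes, was 0.00 with no filter on the mean, which adds genes with few reads. Of 390 list medians under alternatives 103 moved by more than the replicate SD without turning, as in MHC class II (4.03 with no filter, 5.86 reported) and metabolic enzymes (3.57 at a mean of at least 6, 1.44 reported), and 22 of 780 list counts moved by over 1.5 times. Of 1962 values of named genes under alternatives 1952 kept their call. The 10 others were of Csf1r (0.17 and, in the authors' deposited table, 0.20), Wfdc1 (-0.25 to -0.19, and -0.37 in the authors' table) and Asb2 (-0.24 and -0.21, and -0.33 in the authors' table).

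Deviations of same-numbered siPRMT7 + IFN-γ and siLuc libraries had correlations of -0.0334, -0.119 and 0.125. They were 0.125, 0.224 and 0.0542 between IFN-γ alone and siLuc, and 0.0421, 0.0998 and 0.172 between siPRMT7 + IFN-γ and the knockdown alone. In none of the 5 pairs of groups were all 3 above 0.1, so the numbers were not taken as a pairing. With a replicate block the test called 5863 higher and 5888 lower, 993 and 872 past 2-fold, and 2119 above and 2454 below the sum.

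The smallest p that an exact permutation test allows with 3 against 3 libraries is 0.1, so calls rest on the spread shared over genes. Values of weakly expressed genes, such as the class II genes in siLuc cells, are limited by depth and by the transform.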

Other observations

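Classes of noncoding genes differed in their shares of changed genes in siPRMT7 + IFN-γ cells relative to siLuc cells. Of 429 long intergenic noncoding RNA genes tested, 52 (12.1%) were higher past 2-fold and 8 (1.86%) lower, with a median of 0.33. Of 70 long noncoding RNA genes at bidirectional promoters, 10 (14.3%) were higher and 1 (1.43%) lower. Of 777 antisense genes 6.05% were higher and 1.29% lower, of 289 processed transcripts 5.88% and 2.77%, and of 296 genes of unclassified type (TEC) 4.39% and 1.69%. Of 61 miRNA genes 2 were higher and 2 lower, and of 23 misc_RNA genes 0 and 0. Protein-coding genes were balanced, with 812 of 11972 (6.78%) higher and 830 (6.93%) lower. Of 33 transcribed unprocessed pseudogenes 12 (36.4%) were higher and 1 lower, while of 292 processed pseudogenes 7 were higher and 0 lower, with a median of -0.26. Pseudogenes share sequence with their parent genes, and their reads may come from those. These shares are descriptions and were not tested.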
